A study of Mus musculus with 12 samples.

Results

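The genes described here are 10 endothelial genes of the mouse lung: Pecam1, Cdh5, Car4, Ednrb, Gpihbp1, Aplnr, Plvap, Lyve1, Prox1 and Gja5. They were taken as a list of markers of endothelial subtypes, not by a threshold on these data, and all 10 were found among the 19212 genes of the count table. RNA was sequenced from 12 libraries labelled as mouse lung cancer tissue, in 4 groups of 3, grown from LLC cells (Lewis lung carcinoma, a mouse tumour line) put into mice. In OTUB1_KD tumours the LLC cells carried a knockdown lentivirus against OTUB1, a deubiquitinating enzyme, and their genotype label is OTUB1 knockdown. Their controls, NC, carried a negative control lentivirus, with genotype WT. The SFD@M tumours were WT and their mice received SFD@M, a preparation that the labels describe no further. Their controls, Blank, were WT with physiological saline, although the titles of these libraries carry codes beginning with KD. Strain, age, sex, dose and time are not given, nor whether the 3 codes sh1 to sh3 of OTUB1_KD are separate constructs. Separate animals are not stated for the libraries of a group, so p-values cover the spread between libraries only, which may be technical.

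Lung capillaries are built of a pair of endothelial cell kinds: aerocytes, large thin cells that face the air space for gas exchange, and general capillary cells, which can divide and renew the bed. Car4 and Ednrb mark the aerocyte, while Gpihbp1 and Aplnr mark the general capillary cell. Lymphatic vessels depend on the transcription factor Prox1, arteries carry the gap junction protein encoded by Gja5, and Pecam1 and Cdh5 are adhesion genes shared by nearly all endothelium.

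Library totals lay between 16062805 and 18028815 estimated read counts. Otub1 was at 58.6, 49.3 and 71.2 CPM (read counts scaled to the library total) in OTUB1_KD replicates 1 to 3, against 76.2, 73.9 and 69.8 CPM in NC, a log2 fold change of -0.36 ± 0.18 (SE) that did not pass (edgeR adjusted p = 0.112). It was 47.3, 45.5 and 48.1 CPM in SFD@M, against 78.0, 73.3 and 73.5 CPM in Blank, and fell by 0.71 ± 0.05 on the log2 scale (edgeR adjusted p = 5.8e-06). The summed level of 7 alveolar epithelial markers was 9039 to 23387 CPM in OTUB1_KD and 71.7 to 79.7 CPM in NC. It was 19191 to 21418 CPM in SFD@M and 64.6 to 67.6 CPM in Blank. The sum was thus far lower in both control groups, though only Lamp3 had 0 counts in NC and no marker had 0 in Blank. Summed Y-linked transcripts stood at 36.9%, 0.184% and 7.08% of the NC mean in OTUB1_KD replicates 1 to 3. They stood at 0.476%, 0.0511% and 0.170% of it in SFD@M. These shifts run between the same groups as the differences of the 10 genes, and their part in the results was not tested.

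All 10 genes were near or at 0 in NC and Blank. In OTUB1_KD and SFD@M 9 of them averaged 35.5 CPM or more, and Prox1 was low there too, at 2.82 CPM in OTUB1_KD and 3.25 CPM in SFD@M. All 10 passed the test as higher in OTUB1_KD than in NC, where 39.9% of the 14785 genes tested were called higher at an adjusted p below 0.05 (edgeR, quasi-likelihood). All 10 also passed as higher in SFD@M than in Blank, where 49.5% of 14824 genes were. In both comparisons the groups did not overlap for any of the 10 genes. This was also so, on the higher side, for 45.6% of genes tested in OTUB1_KD against NC and for 51.3% in SFD@M against Blank. In all, 6 of the genes had 0 counts in all NC libraries and 5 had 0 in all Blank libraries; Car4, Ednrb, Gpihbp1 and Gja5 had 0 in both. In bulk tissue fewer cells of a type and less RNA per cell cannot be told apart.

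**Figure D1:**
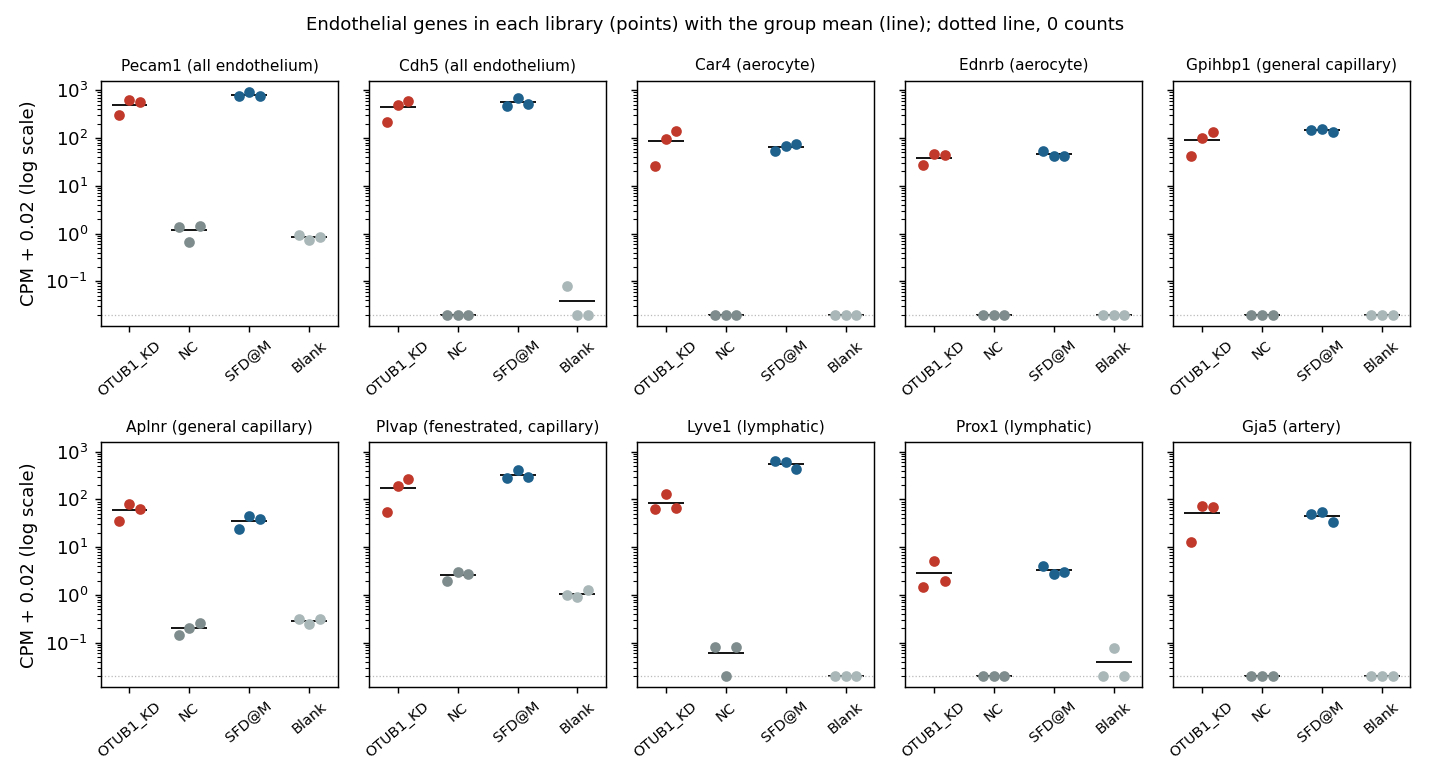
Level of each of the 10 endothelial genes in each library, as CPM plus 0.02 on a log axis; points are libraries (3 a group), lines are group means and the dotted line marks 0 counts. Every point of OTUB1_KD and SFD@M lies above every point of NC and Blank, and OTUB1_KD replicate 1, the leftmost red point, is the lowest of its group in all 10 panels.

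Promoter sequences are shown for the 4 subtype genes that the RefSeq promoter table (build GRCm38.p6) holds, since aerocyte, lymphatic and arterial genes rose together in both comparisons. Each covers 250 bases before to 50 bases after an annotated start, and capitals mark matches to the ETS core CNGGAA on either strand, overlapping matches included; ETS factors are regulators of endothelial genes. Car4 lies at chr11:84957504-84957803 (plus strand), Ednrb at chr14:103843652-103843951 (minus), the first of 2 listed Prox1 starts at chr1:190170778-190171077 (minus) and Gja5 at chr3:97032152-97032451 (plus).
Car4: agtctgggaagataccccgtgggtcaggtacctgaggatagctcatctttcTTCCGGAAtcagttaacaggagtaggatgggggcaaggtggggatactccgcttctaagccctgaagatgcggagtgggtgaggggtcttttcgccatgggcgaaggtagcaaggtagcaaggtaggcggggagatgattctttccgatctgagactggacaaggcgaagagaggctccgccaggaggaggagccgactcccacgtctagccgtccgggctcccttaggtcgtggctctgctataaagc
Ednrb: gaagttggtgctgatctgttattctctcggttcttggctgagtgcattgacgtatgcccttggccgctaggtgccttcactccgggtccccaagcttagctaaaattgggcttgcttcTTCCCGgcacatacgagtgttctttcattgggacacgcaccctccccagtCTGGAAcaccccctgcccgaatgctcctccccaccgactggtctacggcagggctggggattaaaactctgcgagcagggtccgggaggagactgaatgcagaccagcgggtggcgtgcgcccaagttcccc
Prox1: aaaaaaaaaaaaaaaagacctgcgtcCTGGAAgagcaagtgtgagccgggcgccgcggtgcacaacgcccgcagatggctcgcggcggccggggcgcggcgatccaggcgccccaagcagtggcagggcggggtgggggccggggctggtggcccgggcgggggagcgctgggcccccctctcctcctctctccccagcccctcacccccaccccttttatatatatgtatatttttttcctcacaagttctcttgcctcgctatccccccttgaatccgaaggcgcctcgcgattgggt
Gja5: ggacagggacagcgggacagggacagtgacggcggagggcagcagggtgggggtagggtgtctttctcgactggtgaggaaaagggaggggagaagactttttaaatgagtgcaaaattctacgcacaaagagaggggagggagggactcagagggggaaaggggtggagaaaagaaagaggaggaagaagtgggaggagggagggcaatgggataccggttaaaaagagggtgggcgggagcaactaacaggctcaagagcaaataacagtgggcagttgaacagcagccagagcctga
The Car4 window held 2 matches, which overlap in a palindrome, and the Ednrb window held 2 separate ones. The Prox1 window held 1 and the Gja5 window held 0. A match was present in 61.7% of the 32817 promoters in the table. The SOX motif AACAAT, searched on both strands, was in 10.7% of promoters and in 0 of these 4. A match describes letters only. Pecam1, Cdh5, Gpihbp1, Aplnr, Plvap and Lyve1 had no entry.

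Of the pan-endothelial pair, Pecam1 encodes CD31, an adhesion molecule of endothelial junctions. It was at 297, 629 and 563 CPM in OTUB1_KD replicates 1 to 3, against 1.37, 0.654 and 1.42 CPM in NC. In SFD@M it was at 759, 913 and 748 CPM, against 0.930, 0.696 and 0.816 CPM in Blank. Every SFD@M library exceeded every OTUB1_KD library. The log2 fold change was 8.68 ± 0.50 (SE) for OTUB1_KD over NC and 9.90 ± 0.16 for SFD@M over Blank (edgeR adjusted p = 2.8e-05 and 5.6e-09).

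Cdh5 encodes VE-cadherin, the adherens junction protein that seals endothelial cells to each other. Its level was 218, 496 and 609 CPM in OTUB1_KD, with 0 counts in each NC library. It reached 458, 701 and 525 CPM in SFD@M, and a single count was recorded in Blank, in replicate 1. The OTUB1_KD and SFD@M libraries overlap for this gene. Cdh5 was at least 7345-fold higher in OTUB1_KD than in NC, taking 3 counts over the whole control group as the floor (edgeR adjusted p = 0.00018). The ratio of SFD@M to Blank was 28962, with a 95% counting interval of 5198 to 1143991. Without the Blank library that holds the 1 count, the ratio becomes a bound of at least 6435-fold.

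The aerocyte gene Car4 encodes a carbonic anhydrase anchored on the capillary surface. It was measured at 53.1, 67.1 and 76.6 CPM in SFD@M and 26.3, 94.7 and 137 CPM in OTUB1_KD, with 0 counts in NC and in Blank. The OTUB1_KD libraries span the SFD@M range on both sides. The lower bounds were 1436-fold for OTUB1_KD over NC and 1128-fold for SFD@M over Blank (edgeR adjusted p = 0.0011 and 2.2e-06).

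Ednrb encodes the endothelin B receptor, which in lung endothelium clears endothelin from the blood. It was at 53.5, 42.0 and 42.0 CPM in SFD@M and at 27.8, 46.1 and 43.1 CPM in OTUB1_KD, where it varied least of the members relative to its mean. Both control groups had 0 counts. The values overlap between OTUB1_KD and SFD@M, and the bounds were at least 647-fold over NC and at least 788-fold over Blank (edgeR adjusted p = 8.9e-05 and 7.6e-07).

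Among general capillary genes, Gpihbp1 encodes the protein that carries lipoprotein lipase across the capillary wall. Its level was 150, 157 and 133 CPM in SFD@M and 42.9, 98.2 and 134 CPM in OTUB1_KD, again with 0 counts in both control groups. The highest OTUB1_KD library reached the lowest SFD@M library. The bounds were at least 1526-fold over NC and at least 2523-fold over Blank (edgeR adjusted p = 0.00036 and 1.1e-07).

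Aplnr encodes the receptor for the peptide apelin. It was at 34.7, 80.5 and 62.3 CPM in OTUB1_KD, against 2, 3 and 4 counts in NC. SFD@M gave 23.8, 43.9 and 38.8 CPM, against 5, 4 and 5 counts in Blank. Unlike Gpihbp1, Aplnr averaged less in SFD@M, at 35.5 ± 10.5 CPM, against 59.2 ± 23.1 CPM in OTUB1_KD (SD, n = 3 each), with overlap. The log2 fold changes were 8.23 ± 0.48 over NC and 6.96 ± 0.37 over Blank (edgeR adjusted p = 2.9e-05 and 9.1e-07).

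Plvap forms the diaphragms of endothelial fenestrae and caveolae and is low in aerocytes. It was at 53.3, 192 and 272 CPM in OTUB1_KD, against 1.93, 3.03 and 2.67 CPM in NC, and at 281, 415 and 295 CPM in SFD@M, against 0.988, 0.870 and 1.22 CPM in Blank. Every SFD@M library lay above every OTUB1_KD library, and every Blank library lay below every NC library, an order seen in 37.6% of genes tested between those controls. The log2 fold changes were 6.02 ± 0.68 over NC and 8.28 ± 0.25 over Blank (edgeR adjusted p = 0.00034 and 6.2e-08).

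For arteries, Gja5 encodes connexin 40, which also couples muscle cells of the atrium. It was at 49.7, 53.5 and 33.0 CPM in SFD@M and 12.98, 73.3 and 70.2 CPM in OTUB1_KD, with 0 counts in NC and Blank. OTUB1_KD replicate 1 was the lowest of the 6 libraries and its 2 companions the highest. The bounds were at least 867-fold over NC and at least 781-fold over Blank (edgeR adjusted p = 0.0017 and 7.8e-06). Summed levels of 8 cardiac muscle genes were 179, 604 and 91.0 CPM in OTUB1_KD, against 2.55 to 3.15 CPM in NC. The same sums were 599, 301 and 461 CPM in SFD@M, against 0.696 to 1.34 CPM in Blank. They do not follow the order of Gja5 among libraries, and their part in it was not tested.

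Lyve1, a hyaluronan receptor of lymphatic endothelium that some tissue macrophages also carry, showed the widest gap between OTUB1_KD and SFD@M among the 10 genes. It was at 63.0, 128 and 65.2 CPM in OTUB1_KD, with 1, 0 and 1 counts in NC, and at 644, 594 and 443 CPM in SFD@M, with 0 counts in Blank. No SFD@M library came near the OTUB1_KD range. The ratio of OTUB1_KD to NC was 2117 (95% counting interval 586 to 17482; edgeR adjusted p = 2.5e-05), and SFD@M was at least 9640-fold above Blank (edgeR adjusted p = 7.9e-07).

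Prox1, the transcription factor that sets lymphatic identity, was by far the least abundant member. It had 25, 88 and 35 counts in OTUB1_KD libraries, 1.43, 5.09 and 1.94 CPM, and 0 in NC. It had 67, 47 and 52 counts in SFD@M libraries, 3.93, 2.77 and 3.06 CPM, and a single count in Blank, in replicate 2. The SFD@M values lie inside the OTUB1_KD range. Prox1 was at least 46.5-fold higher in OTUB1_KD than in NC, a bound that is 28.0 without OTUB1_KD replicate 2 (edgeR adjusted p = 0.0032 with all libraries). The ratio of SFD@M to Blank was 168 (95% counting interval 29.7 to 6673; edgeR adjusted p = 9.4e-06), and without Blank replicate 2 it is a bound of at least 37.3.

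On the per-length scale (TPM), which allows levels of different genes to be compared, Gpihbp1 and Pecam1 led in both groups with 408 and 344 TPM in SFD@M and 237 and 217 TPM in OTUB1_KD. In SFD@M Lyve1 came next after Pecam1, at 308 TPM. In OTUB1_KD it ranked behind Cdh5, Plvap and Car4, at 47.6 TPM. Cdh5, Plvap and Car4 had 194, 245 and 83.1 TPM in SFD@M and 156, 129 and 108 TPM in OTUB1_KD. Gja5, Aplnr and Ednrb formed a lower tier in both groups, at 13.9 to 20.4 TPM in SFD@M and 14.6 to 23.8 TPM in OTUB1_KD. Prox1 was at 0.56 TPM in SFD@M and 0.483 TPM in OTUB1_KD.

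SFD@M was also set directly against OTUB1_KD, the groups in which the genes are measurable; treatment, lentivirus and experiment differ between them together and cannot be told apart. No member passed in this test, and 2, Lyve1 and Pecam1, had an unadjusted p below 0.05. Over all 14914 genes edgeR called 2, or 0.0134%, both higher in SFD@M, and 2966 had an unadjusted p below 0.05. DESeq2 called 1372 genes and limma on log2(TPM + 1) called 10, and each called 1 of the members, Lyve1. Lyve1 was 6.67-fold higher in SFD@M, a log2 fold change of 2.74 ± 0.32 (SE, edgeR adjusted p = 0.0595). Its value ranged between 2.56 and 3.10 over 15 alternative settings, of which 6 passed the threshold. Of the settings that left out 1 library only the one without OTUB1_KD replicate 2 passed, at 3.10 (edgeR adjusted p = 0.0065). The members Pecam1, Plvap and Lyve1, had all SFD@M libraries above all OTUB1_KD libraries, which held for 12.1% of all genes tested. The reverse order, seen in 16.7% of genes, held for none of the members.

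The other differences, SFD@M over OTUB1_KD, were smaller and less certain. Pecam1 differed by a log2 fold change of 0.71 ± 0.30, Plvap by 0.94 ± 0.52, Gpihbp1 by 0.68 ± 0.38 and Cdh5 by 0.35 ± 0.38, with edgeR adjusted p of 0.246, 0.348, 0.346 and 0.626. Aplnr stood at -0.72 ± 0.34 (edgeR adjusted p = 0.285), the opposite sign to its general capillary partner Gpihbp1. Ednrb was at 0.24 ± 0.23 (edgeR adjusted p = 0.575). Car4 at -0.39 ± 0.51, Gja5 at -0.19 ± 0.55 and Prox1 at 0.24 ± 0.49 were within 1 SE of 0. Car4, Prox1 and Gja5 changed sign when 1 library was left out. Car4 was at 0.16 without OTUB1_KD replicate 3 and Prox1 at -0.08 without OTUB1_KD replicate 1. Gja5 was at 0.09 without OTUB1_KD replicate 2, 0.13 without replicate 3 and 1.8e-05 without SFD@M replicate 3. Within OTUB1_KD all 10 genes were lowest in replicate 1, the library of that group with the most Y-linked RNA and with 724 CPM of 4 cell division genes, against 160 and 259 CPM in replicates 2 and 3.

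Dividing each gene by Cdh5 within a library sets subtypes against each other relative to 1 pan-endothelial gene. Such a ratio also carries the variation of Cdh5 itself. Pecam1 per Cdh5 ran from 0.924 in OTUB1_KD replicate 3 to 1.66 in SFD@M replicate 1. Lyve1 counts per Cdh5 count were 1.41, 0.847 and 0.843 in SFD@M, against 0.289, 0.258 and 0.107 in OTUB1_KD, a 5.02-fold difference. For Aplnr the ratios were 0.0519, 0.0626 and 0.0739 in SFD@M, against 0.159, 0.162 and 0.102 in OTUB1_KD, which is 0.450 of the OTUB1_KD level. Neither set overlaps, and both gaps also stood with Pecam1 as the divisor, at 4.03 and 0.362. Plvap per Cdh5 was 0.613, 0.592 and 0.563 in SFD@M and 0.244, 0.387 and 0.446 in OTUB1_KD. Gpihbp1 per Cdh5 was 0.328, 0.224 and 0.254 in SFD@M and 0.196, 0.198 and 0.219 in OTUB1_KD. Neither of these overlapped, but both overlapped when divided by Pecam1. Of the 9 genes set against Cdh5, 3 were without overlap on the higher side, as were 1.02% of 14444 genes, and 1 on the lower side, as were 17.1%. These ratios are descriptions with 3 libraries a group and carry no test.

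The aerocyte genes showed no such gap against Cdh5. Car4 per Cdh5 was 0.116, 0.0957 and 0.146 in SFD@M and 0.120, 0.191 and 0.225 in OTUB1_KD, with overlap. Ednrb per Cdh5 overlapped as well, whereas per Pecam1 it was lower in every SFD@M library, at 0.703 of the OTUB1_KD level. Between capillary kinds, Car4 per Gpihbp1 was 0.354, 0.428 and 0.575 in SFD@M, against 0.613, 0.965 and 1.03 in OTUB1_KD. That is 0.523 of the OTUB1_KD level and without overlap. Ednrb per Gpihbp1 overlapped in counts, at 0.674 of the OTUB1_KD level, but not in TPM, at 0.620 of it. Car4 per Aplnr overlapped and went the other way, at 1.51 times the OTUB1_KD level. The ratio of Ednrb to Aplnr was not taken. Ednrb averaged above Aplnr in SFD@M, at 45.8 and 35.5 CPM, and below it in OTUB1_KD, at 39.0 and 59.2 CPM. Within the general capillary pair, Aplnr per Gpihbp1 was 0.158, 0.280 and 0.292 in SFD@M, against 0.809, 0.820 and 0.467 in OTUB1_KD. That is 0.347 of the OTUB1_KD level and also without overlap, a larger gap than that of Car4 per Gpihbp1.

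**Figure D2:**
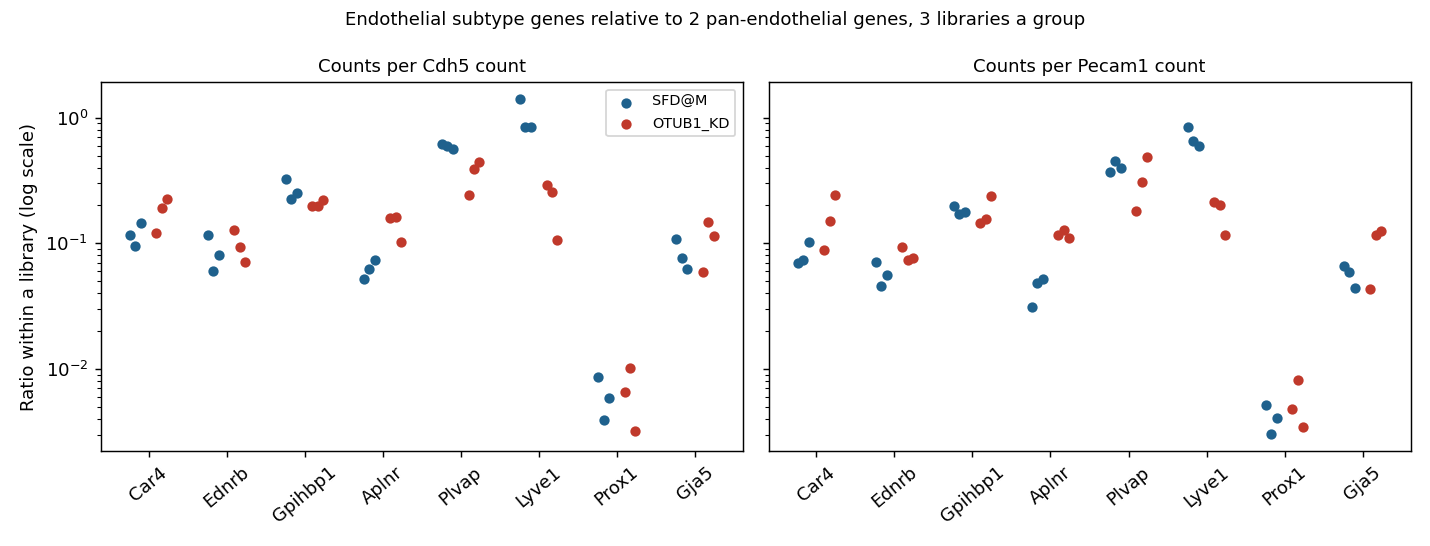
Counts of each subtype gene per count of Cdh5 (left) or Pecam1 (right) in each library, on a log axis; blue points are the 3 SFD@M libraries and red points the 3 OTUB1_KD libraries. Lyve1 lies higher and Aplnr lower in every SFD@M library with either divisor, while Plvap and Gpihbp1 separate with Cdh5 but not with Pecam1.

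Of the 9 genes in the lymphatic list, Lyve1 had the largest log2 fold change between SFD@M and OTUB1_KD. Lyve1 counts per Prox1 count were 164, 215 and 145 in SFD@M, against 44.1, 25.2 and 33.6 in OTUB1_KD, 5.15-fold apart. Against Mmrn1, a better counted lymphatic gene that encodes a multimerin, the gap was smaller, at 20.6, 20.1 and 14.3 in SFD@M and 5.83, 5.06 and 5.60 in OTUB1_KD, or 3.30-fold. Mmrn1 itself averaged 30.6 ± 0.88 CPM in SFD@M and 15.9 ± 8.15 CPM in OTUB1_KD, without overlap, a log2 fold change of 0.97 ± 0.32 (edgeR adjusted p = 0.166). Flt4, the receptor for the lymphatic growth factor VEGF-C, averaged 49.3 ± 7.18 CPM in SFD@M and 50.1 ± 14.0 CPM in OTUB1_KD (SD, n = 3 each). Ccl21a, a chemokine of lymphatic endothelium that guides leukocytes, averaged 46.9 ± 13.6 CPM in SFD@M and 70.8 ± 39.98 CPM in OTUB1_KD. Pdpn, a lymphatic surface protein that alveolar type I cells also make, averaged 158 ± 16.5 CPM in SFD@M and 127 ± 8.58 CPM in OTUB1_KD. None of the 7 lymphatic genes outside the members passed in SFD@M against OTUB1_KD with edgeR. Of these 7 lymphatic genes, 2 had an unadjusted p below 0.05, beside 2966 of all 14914 genes. The log2 fold changes of the 7 lay between -1.22 and 0.97, with a median of 0.25 beside -0.02 over all genes tested. Of the 7, 6 entered the tests against the controls. All 6 rose in OTUB1_KD over NC and in SFD@M over Blank, as did 39.9% and 49.5% of all genes tested.

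Because macrophages can carry Lyve1, a list of 8 macrophage genes was read beside it. Its summed level was 408, 393 and 418 CPM in SFD@M, against 786, 475 and 745 CPM in OTUB1_KD, lower in each SFD@M library. The part of macrophages in the Lyve1 difference was not tested. None of the 8 was at 0 in either group and none passed edgeR's test between them, with 4 at an unadjusted p below 0.05, beside 2966 of all 14914 genes. The 4 that had every SFD@M library below every OTUB1_KD library compare with 16.7% of all genes. Folr2 and Mrc1, which mark tissue-resident macrophages, had log2 fold changes of -1.20 ± 0.36 and -0.37 ± 0.26 (edgeR adjusted p = 0.142 and 0.457). Cd163, a scavenger receptor of such cells, was at 0.52 ± 0.51 (edgeR adjusted p = 0.592).

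**Figure D3:**
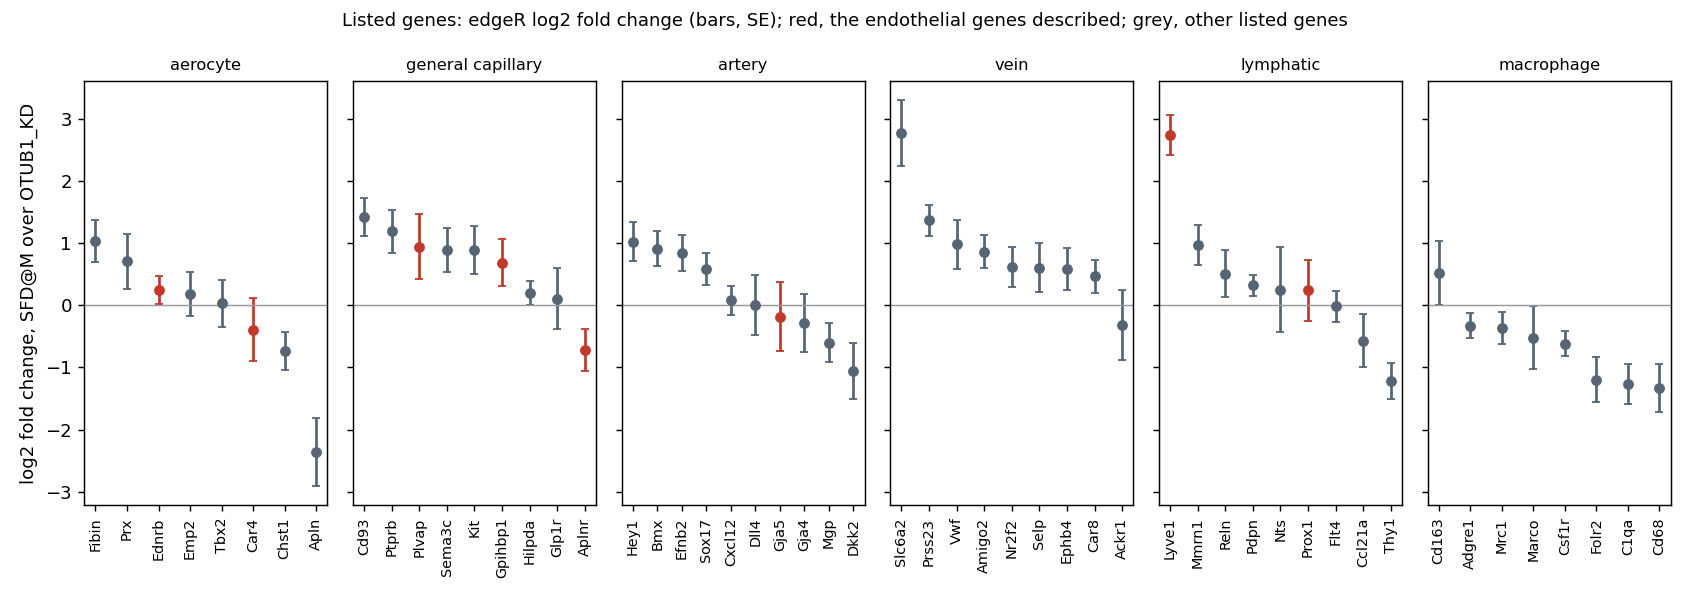
Log2 fold change of SFD@M over OTUB1_KD for the genes of 5 endothelial lists and of the macrophage list, with SE bars (edgeR, 3 libraries a group); red marks the endothelial genes described here and grey the other listed genes. Lyve1, at 2.74, stands above every other lymphatic gene, and the rest of its list spreads around 0.

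The other genes of each subtype list mostly followed the members against the controls. None was called between SFD@M and OTUB1_KD with edgeR. There an unadjusted p below 0.05 was seen for 7 of 20 pan-endothelial, 3 of 6 aerocyte, 3 of 6 general capillary and 4 of 9 artery genes. Of all 14914 genes tested, 2966 had such a p. Of 20 pan-endothelial genes outside the members, 20 rose in OTUB1_KD over NC and 20 rose in SFD@M over Blank. Over all genes tested, 39.9% and 49.5% were called higher in these comparisons. The most abundant were Calcrl, a receptor subunit for adrenomedullin, Eng, a TGF-beta co-receptor, and Clec14a. Calcrl averaged 1351 ± 206 CPM in SFD@M and 367 ± 202 CPM in OTUB1_KD, a log2 fold change of 1.91 ± 0.37 (edgeR adjusted p = 0.0848). Clec14a averaged 434 ± 95.7 CPM in SFD@M and 209 ± 91.3 CPM in OTUB1_KD, and had 0 counts in NC and Blank. Eng was at 499 ± 109 CPM in SFD@M and 348 ± 185 CPM in OTUB1_KD, and unlike the members it was also well measured in Blank (149 ± 2.42 CPM) and NC (137 ± 1.504 CPM).

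Of 6 further aerocyte genes, 4 rose and 1 fell in OTUB1_KD over NC, and 4 rose and 2 fell in SFD@M over Blank. Of all genes tested, 39.9% rose and 25.8% fell in the first comparison, and 49.5% rose and 38.7% fell in the second. The gene that fell in both was Chst1, a sulfotransferase, at -0.76 ± 0.26 and -0.59 ± 0.15 on the log2 scale (edgeR adjusted p = 0.0358 and 0.0063). The other was Apln, which encodes apelin, the ligand of Aplnr. Apln was at 6.46, 22.8 and 20.2 CPM in SFD@M, against 47.9 ± 2.43 CPM in Blank, and at 131, 46.1 and 77.7 CPM in OTUB1_KD, against 81.6 ± 1.84 CPM in NC. It was therefore abundant in both control groups, in which the capillary members were at or near 0. Its log2 fold change was -1.57 ± 0.38 for SFD@M over Blank (edgeR adjusted p = 0.0053) and -0.01 ± 0.35 for OTUB1_KD over NC (edgeR adjusted p = 0.982). Between SFD@M and OTUB1_KD it was -2.36 ± 0.54 without overlap (edgeR adjusted p = 0.101), so ligand and receptor had the same sign. Emp2, Prx and Tbx2, the most abundant of the aerocyte list, averaged 1027, 221 and 163 CPM in SFD@M and 908, 137 and 161 CPM in OTUB1_KD. Unlike Car4 and Ednrb, they were also measured in the controls, at 153, 13.2 and 0.903 CPM in NC and 104, 19.6 and 0.484 CPM in Blank.

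All 6 other general capillary genes rose in OTUB1_KD over NC and in SFD@M over Blank, beside 39.9% and 49.5% of all genes tested. Between SFD@M and OTUB1_KD none passed, their median log2 fold change was 0.89 and 4 were without overlap, all higher in SFD@M, an order that 12.1% of all genes tested showed. The receptor phosphatase gene Ptprb averaged 903 ± 185 CPM in SFD@M and 401 ± 163 CPM in OTUB1_KD. Cd93 averaged 844 ± 147 CPM in SFD@M and 318 ± 101 CPM in OTUB1_KD, and the semaphorin Sema3c 576 ± 78.1 CPM in SFD@M and 316 ± 161 CPM in OTUB1_KD. Aplnr, below 0, was thus outside the range of these 6, which was 0.10 to 1.42.

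Of 9 further artery genes, 8 rose in OTUB1_KD over NC and 8 rose and 1 fell in SFD@M over Blank. The one that fell was Dkk2. Among all genes tested, 39.9% rose in the first comparison, and 49.5% rose and 38.7% fell in the second. Between SFD@M and OTUB1_KD none passed and the median was 0.08. Mgp, a matrix calcification inhibitor, averaged 933 ± 286 CPM in SFD@M and 1427 ± 322 CPM in OTUB1_KD. Cxcl12, a chemokine of arterial cells and stroma, averaged 253 ± 54.3 CPM in SFD@M and 243 ± 50.7 CPM in OTUB1_KD. The ephrin Efnb2, an arterial identity gene, averaged 208 ± 26.4 CPM in SFD@M and 117 ± 41.9 CPM in OTUB1_KD.

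Blank was compared with NC to see whether the 2 control groups hold the same endothelial levels. Only Pecam1 and Plvap had enough counts to enter this test. Plvap was lower in Blank, with a log2 fold change of -1.31 ± 0.23 (edgeR adjusted p = 5.1e-07), where 37.2% of 12087 genes tested were called lower; a fit of all 12 libraries together did not call it (adjusted p = 0.156). Pecam1 was at -0.49 ± 0.30 (edgeR adjusted p = 0.130), and at -0.78 without NC replicate 2 (edgeR adjusted p = 0.022). In raw counts Plvap had 17, 15 and 21 in Blank and 31, 51 and 45 in NC, so the difference rests on few reads.

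The difference between the experiments, SFD@M over Blank minus OTUB1_KD over NC, was tested in a fit of all 12 libraries. Of the members only Plvap passed, at 2.30 ± 0.75 on the log2 scale (edgeR adjusted p = 0.0463), where 12.4% of 15304 genes were called higher. The lower Plvap level in Blank than in NC enters this value together with its higher level in SFD@M than in OTUB1_KD. The call was lost without any 1 of the 3 NC, 3 Blank or 3 SFD@M libraries or without OTUB1_KD replicate 2, with edgeR adjusted p between 0.0589 and 0.103. Pecam1 was at 1.25 ± 0.48 (edgeR adjusted p = 0.0813), and passed without NC replicate 2, OTUB1_KD replicate 1 or OTUB1_KD replicate 2 (edgeR adjusted p = 0.0494, 0.0457 and 0.0489). For Lyve1, with 0 counts in Blank and 2 in NC, the difference has no point value that could be relied on. Its size over Blank was at least 9640-fold, beside the ratio of 2117 over NC. Aplnr stood at -1.24 ± 0.79 (edgeR adjusted p = 0.280). For Car4, Ednrb, Gpihbp1 and Gja5 both control groups have 0 counts, so no such difference can be estimated. Of the 6 other general capillary genes 4 were called higher in this test.

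The counts are sums over annotated transcripts, and the split among them is an estimate. Aplnr and Lyve1 have 1 transcript in the table. The leading transcript held 95.7% to 98.6% of Cdh5 counts and 85.4% to 96.2% of Gja5 counts over the 6 libraries. For Ednrb it held 62.5%, 72.9% and 62.5% in SFD@M, against 58.0%, 54.5% and 56.0% in OTUB1_KD, without overlap. The least used of 4 Pecam1 transcripts held 4.23%, 4.13% and 3.61% in SFD@M and 2.66%, 9.14% and 15.4% in OTUB1_KD. The few Prox1 counts were given wholly to one transcript in OTUB1_KD replicate 1 and wholly to another in replicate 3, so nothing can be read from its split.

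The members varied together to different degrees across the 6 SFD@M and OTUB1_KD libraries, as Pearson's r of log2(CPM + 0.5); these values describe 6 libraries of 2 groups, which also differ in the Y-linked and alveolar RNA given above, and carry no test. Gpihbp1 and Plvap had r = 0.99, Cdh5 and Plvap 0.96 and Pecam1 and Plvap 0.96. Car4 went with Gja5 at 0.87 and with its aerocyte partner Ednrb at 0.62. Gpihbp1 and Aplnr stood at 0.01, Lyve1 and Prox1 at 0.53, and Aplnr and Lyve1 at -0.51. The 0.01 pools groups between which Gpihbp1 averaged higher and Aplnr lower in SFD@M. Within OTUB1_KD both were lowest in replicate 1, so it does not show that they are unrelated. Among 12523 genes the pattern most like Cdh5 was that of Robo4, with r = 0.997, then Prkd1 and Fam162b. Those most like Gpihbp1 were Aldh2, Syt7 and Acvrl1 (r = 0.996 to 0.993), those most like Car4 were Rusf1, Atf5 and Atp9a (0.997 to 0.993), those most like Gja5 were Snx22, Ablim3 and Klhl8 (0.999 to 0.996) and those most like Prox1 were Nudt7, Zfp866 and Cbr1 (0.994 to 0.988). With this many genes and 6 libraries, high values arise readily.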

How the data were processed

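Poly(A)-selected RNA from 12 libraries was sequenced on DNA nanoballs, per the labels' protocols. The authors deposited expected counts, FPKM, TPM and a normalised count signal per transcript; Bowtie2, RSEM 1.3.1, DESeq2 1.4.5 and build GRCm39 are named, without roles, in the submitters' processing notes. The deposited signal, divided by a factor per library, came back as whole reads for 100% of values within 0.001, and the FPKM column was read only to check the file. Strandedness of counting is not given in the sources used here.

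Expected counts were summed over 70659 transcripts by gene ID and rounded, giving 19212 genes. RefSeq (GRCm38.p6) named 19155 of them; 57 had none, with 0.342% of counts or less in every library. CPM are counts over library totals. The test was edgeR 4.0.16 (R 4.3.3) quasi-likelihood with TMM factors and filterByExpr, for each comparison on its own 6 libraries, and for the difference between experiments on all 12, with Benjamini-Hochberg adjustment over all genes tested and a threshold of 0.05. A gene with 0 counts in a control group has a lower bound, against 3 counts over the group; with 1 to 3 counts it has a ratio with a 95% interval that covers counting error only. Alternatives were limma 3.58.1 on log2(TPM + 1), DESeq2 1.42.0, other factors and filters, a replicate block, and leaving out each library. The script was tested on simulated data.

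Genes named are all 10 members, Otub1, the 3 other genes of each endothelial list with the highest mean CPM, and the 3 genes (mean at least 5 CPM) most like 5 of the members over 6 libraries. Apln, Chst1, Dkk2, Mmrn1, Prss23, Folr2, Mrc1 and Cd163 were named after their values were seen. The members and lists were chosen with earlier results of these data known.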

Additional observations from a re-analysis of the deposited data

Results flagged for a closer look

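Plvap was flagged because, alone of the members, it passed the test of a difference between the 2 experiments. SFD@M over Blank exceeded OTUB1_KD over NC by 2.30 ± 0.75 on the log2 scale (edgeR adjusted p = 0.0463, interaction term in a fit of 12 libraries). Such a call was common, with 12.4% of 15304 genes tested called higher. All 3 SFD@M libraries were above all 3 OTUB1_KD libraries, and all 3 Blank libraries were below all 3 NC libraries. These orders were seen in 12.1% and 37.6% of the genes tested in those comparisons. The value kept its sign in all 20 alternatives, and 8 of them passed the threshold. What sets the difference was not tested.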

How the results depend on the processing

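All 10 members stayed called in OTUB1_KD against NC and in SFD@M against Blank under every alternative run. Between SFD@M and OTUB1_KD, 0 members were called in the reported fit; without a filter, with DESeq2, with limma on TPM, with all 12 libraries in 1 fit and with the replicate block the count was 1 (Lyve1 each time), and leaving out 1 library gave 0 to 1. All genes called there numbered 2 in the reported fit, and 15, 1372, 10, 2863 and 7 under those 5 settings, with 0 to 1875 when 1 library was left out. In Blank against NC the fit of all 12 libraries called 0 members and 2699 genes, against 1 and 8977, and leaving out 1 library gave 1 to 2 members. For the difference between experiments, relative log expression factors and no filter called 0 members, DESeq2 3 and limma 2, against 1, and leaving out 1 library gave 0 to 2 members and 2090 to 5523 genes, against 3537. The cause of these shifts was not tested.

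Signs turned for some values that had not passed the test. In SFD@M against OTUB1_KD, Gja5 became 0.064 with limma and 0.085 with the replicate block, and lay between -0.65 and 0.13 when 1 library was left out (0.091 and 0.13 without OTUB1_KD replicates 2 and 3, 1.8e-05 without SFD@M replicate 3). Prox1 lay between -0.081 (without OTUB1_KD replicate 1) and 0.92, and Car4 between -0.82 and 0.16 (without OTUB1_KD replicate 3). In Blank against NC, Otub1 became -0.019 in the fit of 12 libraries and lay between -0.0042 (without NC replicate 3) and 0.059. In the difference between experiments, Cdh5 became 0.40 with limma and lay between -1.97 and 0.35 (without Blank replicate 1), and Prox1 became 0.087 with limma and lay between -2.09 and 0.23 (without Blank replicate 2). Cdh5 and Prox1 each had 0 counts over NC and 1 over Blank, so these differences have no point value that could be relied on.

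Replicate numbers did not pair the libraries: deviations of same-numbered libraries correlated between -0.249 and 0.079, and the block changed no other member call. Depth limits the members mainly in NC and Blank, where 6 and 5 of the 10 have 0 counts, and for Prox1 everywhere; leaving out 1 control library lowers each bound by up to 1.51 times through its smaller total alone.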

Other observations

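Of 9 listed vein genes, 7 rose in OTUB1_KD over NC and 8 rose in SFD@M over Blank, 8 having been tested in each. The shares called higher over all genes tested were 39.9% and 49.5%. Slc6a2, the noradrenaline transporter, was at 421, 357 and 226 CPM in SFD@M, against 16.2, 73.0 and 60.1 CPM in OTUB1_KD. Its log2 fold change was 2.76 ± 0.53 (edgeR adjusted p = 0.0848), close in size to that of Lyve1 and likewise short of the threshold. Prss23, a secreted protease, averaged 177 CPM in SFD@M and 69.4 CPM in OTUB1_KD, a log2 fold change of 1.36 ± 0.25 (edgeR adjusted p = 0.0848). Vwf, the clotting factor stored by endothelium, averaged 818 ± 187 CPM in SFD@M and 418 ± 191 CPM in OTUB1_KD, and Ephb4, a venous receptor, 177 ± 35.2 CPM in SFD@M and 119 ± 48.7 CPM in OTUB1_KD. None of the 9 passed in that comparison with edgeR, and 4 had an unadjusted p below 0.05, beside 2966 of all 14914 genes.

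Genes of sprouting tumour vessels were read in the same way. None of 7 passed in SFD@M against OTUB1_KD with edgeR, and their median log2 fold change was -0.73 beside -0.02 over all genes. Of the 7, 2 had an unadjusted p below 0.05, beside 2966 of all 14914 genes. Angpt2, a destabilising ligand of the Tie2 receptor, averaged 16.8 ± 4.47 CPM in SFD@M and 39.2 ± 9.01 CPM in OTUB1_KD, a log2 fold change of -1.22 ± 0.28 (edgeR adjusted p = 0.101). Pdgfb, which recruits pericytes, averaged 95.8 ± 30.4 CPM in SFD@M and 120 ± 55.8 CPM in OTUB1_KD. Cxcr4, a chemokine receptor of tip cells and leukocytes, averaged 45.1 ± 10.4 CPM in SFD@M and 42.4 ± 19.8 CPM in OTUB1_KD. Against the controls, 6 of the 7 rose in OTUB1_KD over NC and 7 rose in SFD@M over Blank, beside 39.9% and 49.5% of all genes tested. Summed pericyte and smooth muscle genes were at 599 to 841 CPM in SFD@M and 523 to 1001 CPM in OTUB1_KD.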
